A study of Mus musculus with 7 samples.

Results

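The ATP-binding cassette (ABC) transporters of subfamilies A, B, C, D and G were examined in the kidneys of 7 male mice aged 6 months that lacked Slc7a9 (genotype Slc7a9-/-). The product of Slc7a9 is the transport subunit for cystine reabsorption in the proximal tubule, and its loss models cystinuria, a disease of cystine stones. In 4 of these mice L-ergothioneine, a sulfur-containing compound of the diet with antioxidant properties, was given at 16 mg/kg/day in the drinking water, and the other 3 were untreated. The labels number the mice within a group and name no litter, cage or hour of collection, and all 7 mice carry the same genotype, so nothing here compares the model with wild-type kidney. The members are all protein-coding genes whose symbol in GENCODE release M21 (mouse build GRCm38) starts with Abca, Abcb, Abcc, Abcd or Abcg followed by a digit. There are 46 of them among the 45706 genes of the deposited tables: 16 of subfamily A, 10 of B, 10 of C, 4 of D and 6 of G. Enough reads for a test were found for 33 of the 46.

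ABC transporters bind and hydrolyse ATP to move a substrate across a membrane against its gradient. In the proximal tubule, members of subfamilies B, C and G in the brush border pump drugs, toxins and their glutathione, glucuronide and sulfate conjugates into urine after uptake carriers have brought them in from blood. Other members move cholesterol and phospholipids, load fatty acids into peroxisomes, serve heme and iron-sulfur cluster handling in mitochondria, or regulate a potassium channel.

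Libraries held 14843899 to 19791575 counts, and ABC genes took 0.448% to 0.488% of the counts in ergothioneine kidneys and 0.423% to 0.457% in untreated kidneys. Levels are given as CPM (counts scaled to a common library size) to follow a gene across kidneys, and as protein-coding TPM (transcript abundance corrected for length, rescaled so that protein-coding genes have the same sum in every library) to compare genes with each other. The rescaling was needed because protein-coding genes took 46.9% to 58.2% of the deposited TPM in ergothioneine kidneys and 80.4%, 76.3% and 47.5% in untreated kidneys 1, 2 and 3, so that untreated kidneys 1 and 2 stood apart. The targeted gene, Slc7a9, had 103 to 166 counts in ergothioneine libraries and 95 to 105 in untreated ones, which cannot check the genotype because no label names the disrupted part of the gene. Proximal tubule markers were abundant in both groups, at a summed 15440 to 16920 CPM with ergothioneine and 15320 to 18590 CPM untreated. Of 6 such markers 0 passed the test by edgeR, with 1 at an unadjusted p under 0.05. In bulk tissue, fewer cells of a type and less RNA per cell cannot be told apart.

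Promoter sequences of 3 members are shown. They are Abcc2, the member past the test with all 7 kidneys, and Abcb1b and Abcc4, which passed it without ergothioneine kidney 4. Each is the RefSeq window on GRCm38.p6 from 250 bases before to 50 bases after an annotated start, read 5′ to 3′ on the gene's strand, at chr19:43782058-43782357 (plus strand) for Abcc2, chr5:8797897-8798196 (plus strand) for Abcb1b and chr14:118706170-118706469 (minus strand) for Abcc4. Capitals mark the antioxidant response element core TGACNNNGC and the E-box CACGTG, searched on both strands.
Abcc2: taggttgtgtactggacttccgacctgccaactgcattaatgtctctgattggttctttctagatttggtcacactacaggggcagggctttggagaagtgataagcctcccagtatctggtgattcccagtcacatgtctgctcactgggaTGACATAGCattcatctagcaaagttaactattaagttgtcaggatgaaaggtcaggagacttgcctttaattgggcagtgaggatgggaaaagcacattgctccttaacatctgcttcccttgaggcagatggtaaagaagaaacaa
Abcb1b: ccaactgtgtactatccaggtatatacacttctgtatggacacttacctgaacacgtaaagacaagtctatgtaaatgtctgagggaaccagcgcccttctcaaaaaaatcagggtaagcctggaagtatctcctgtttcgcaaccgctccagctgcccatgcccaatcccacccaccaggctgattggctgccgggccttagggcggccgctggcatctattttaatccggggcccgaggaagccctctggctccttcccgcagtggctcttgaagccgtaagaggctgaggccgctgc
Abcc4: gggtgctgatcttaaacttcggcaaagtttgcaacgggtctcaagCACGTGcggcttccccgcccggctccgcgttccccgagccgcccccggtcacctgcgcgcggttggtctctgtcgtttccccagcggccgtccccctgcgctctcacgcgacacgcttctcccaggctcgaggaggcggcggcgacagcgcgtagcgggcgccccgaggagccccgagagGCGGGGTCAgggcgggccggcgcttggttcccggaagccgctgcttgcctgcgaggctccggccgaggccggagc

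The Abcc2 window held 1 antioxidant response element core, at position -98 from the RefSeq start, and no E-box. GENCODE places the Abcc2 start at 43782192, inside this window and upstream of the core. By that annotation the core therefore lies within the transcribed region. The Abcc4 window shown held an E-box at -205 and the core, on the opposite strand, at -25. Another Abcc4 window, at chr14:118676882-118677181 and not shown, held a core at -23 on the gene's strand and no E-box. Neither motif was in the Abcb1b window. RefSeq windows were matched for 34 of the 46 members, 40 windows in all. Abcd2, which passed by limma-voom and by edgeR without ergothioneine kidney 1, had no matched window. The core was in 7 of these 40 windows (5 members), against 12.4% of all 32817 windows, and the E-box in 5 of 40 (5 members), against 7.15%. In the 3 windows shown the motifs do not overlap each other, and a match describes the letters only.

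A few members carried most of the family's RNA. Per transcript length, Abcg2, the brush border pump for urate and sulfate conjugates known as BCRP, stood highest in every kidney, at 439, 500.4, 516 and 482 protein-coding TPM with ergothioneine and 442, 441 and 454 untreated. Abcc2, which encodes the conjugate pump MRP2 of the same membrane, followed at 294, 347, 258 and 383 with ergothioneine and 281, 295 and 355 untreated. Next were the peroxisomal fatty acid carrier Abcd3 (225 to 309 with ergothioneine, 233 to 277 untreated) and the phospholipid carrier Abca3 (229.9 to 262 with ergothioneine, 199 to 270.5 untreated). The range of Abcc2 overlapped theirs, but within each kidney Abcc2 stood above both. Abcd3 and Abca3 overlapped each other and changed order between kidneys. Abca13, one of the longest proteins of the family, came next at 109.8 to 135 protein-coding TPM with ergothioneine and 103 to 135 untreated. These 5 genes were the only members that averaged at least 100 protein-coding TPM, and they held 77.3% of the family's summed level. In raw counts, which favour long transcripts, Abca13 led at 971 to 1119 CPM with ergothioneine and 944 to 1090 CPM untreated.

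**Figure D1:**
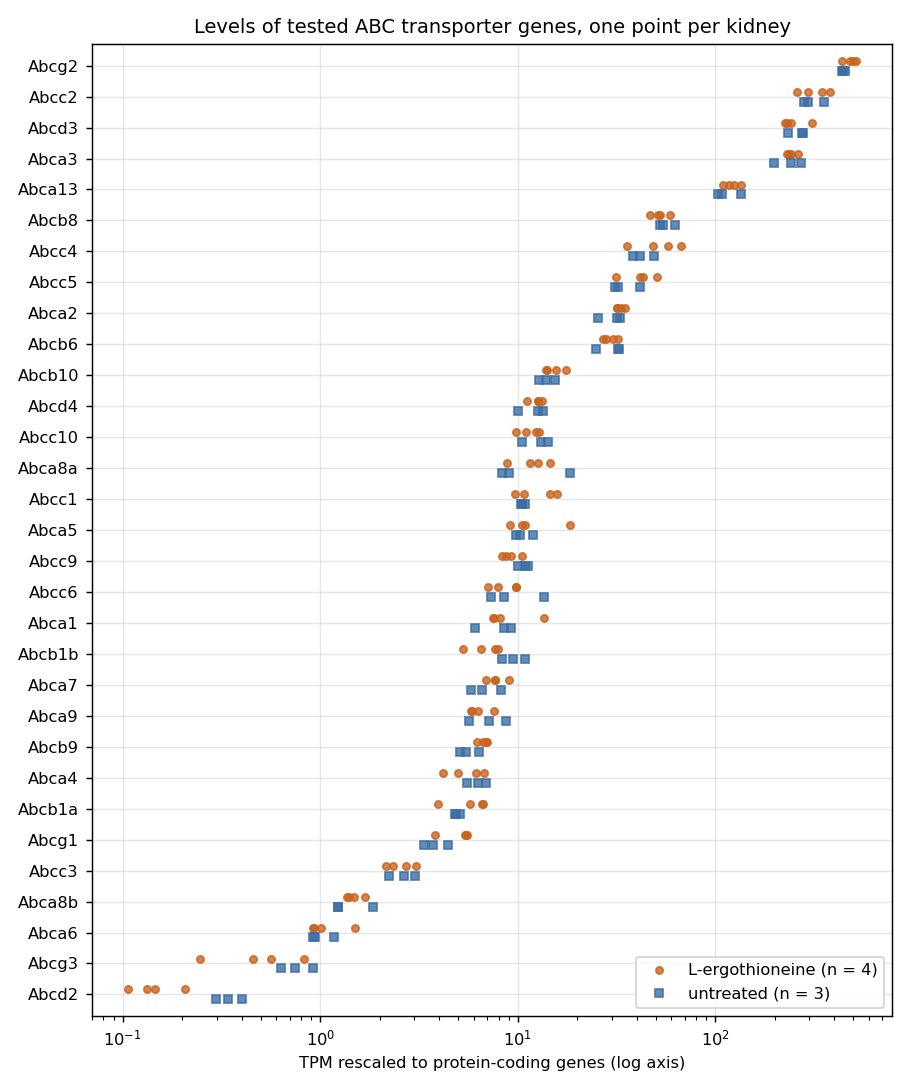
Levels of 31 tested ABC genes in protein-coding TPM (log axis), 1 point per kidney, with the 4 ergothioneine kidneys as circles above the 3 untreated kidneys as squares. Levels span from Abcg2 at 439 to 516 with ergothioneine and 441 to 454 untreated down to Abcd2 at 0.106 to 0.206 with ergothioneine and 0.298 to 0.400 untreated.

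Below the leading 5, 13 further members averaged at least 10 protein-coding TPM, among them the mitochondrial gene Abcb8, the nucleotide and urate exporter Abcc4, and Abcc5. At the other end 15 of the 46 averaged under 1. Of the 13 members that could not be tested, Abca12, Abca15, Abca16 and Abcb5 had 0 counts in every library, which allows up to 0.152 to 0.202 CPM (3 counts, counting error only). The other 9 untested members, Abca14, Abca17, Abcb4, Abcb11, Abcc8, Abcc12, Abcg4, Abcg5 and Abcg8, had at most 20 counts in any library. Several of these are known from other organs, such as the skin lipid carrier Abca12, the bile salt pump Abcb11, the hepatic and intestinal sterol pair Abcg5 and Abcg8, and the beta cell sulfonylurea receptor Abcc8.

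With ergothioneine, 1 of the 33 tested ABC genes passed the test, Abcc2, which was higher, and 0 were lower (edgeR quasi-likelihood test, Benjamini-Hochberg adjusted p under 0.05 over all 15399 genes tested). That is 3.03% of the tested members, where 7.16% of all genes tested were called, 552 higher and 550 lower. At an unadjusted p under 0.05 there were 8 members (24.2%; 5 positive and 3 negative log2 fold changes), against 20.8% of all genes. The CPM of the groups did not overlap in 7 members (21.2%), against 18.6% of all genes: Abcc2, Abcg2, Abcc1 and Abcb9 lay above the untreated range and Abcb1b, Abcc9 and Abcd2 below it. The shares at an unadjusted p under 0.05 and without overlap thus lay near their backgrounds. The median log2 fold change of the members was 0.02, with 18 positive and 15 negative, against -0.0031 over all genes, and the median absolute value was 0.12 against 0.13. For 25 of the 33 members (75.8%; 70.0% of all genes) the 95% interval lay within a 1.5-fold change in either direction, so larger differences in these genes lay outside their intervals. DESeq2 called Abcc2 and also Abcb1b, which was lower, with 7.04% of all genes called.

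**Figure D2:**
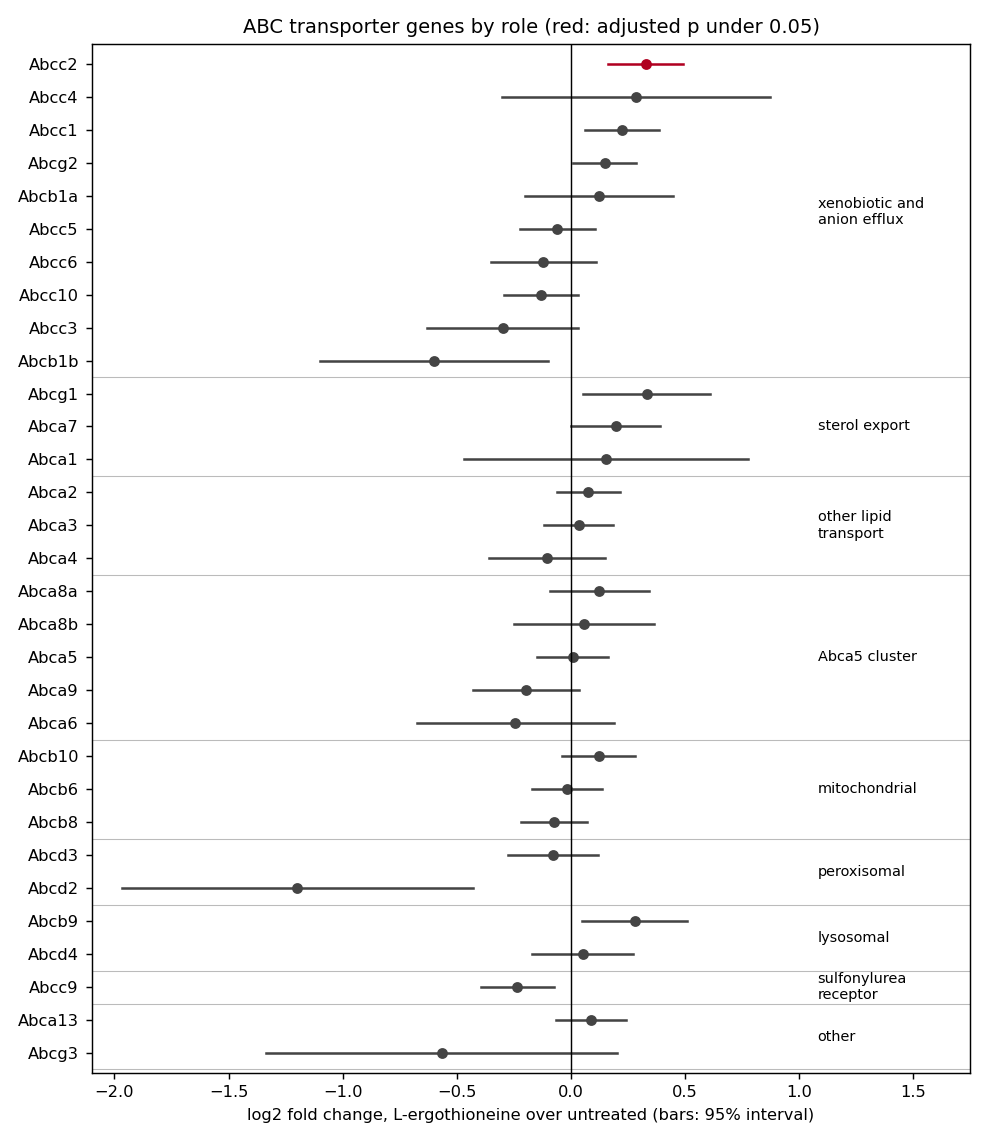
Log2 fold change of CPM, ergothioneine over untreated, for 31 tested ABC genes grouped by role, with 95% intervals from edgeR (n = 4 and 3). Abcc2 (0.33) is the single gene in red, past the adjusted threshold, and the widest departures are those of Abcd2 (-1.20) and Abcb1b (-0.60), which are in grey.

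The efflux pumps for drugs and organic anions held the single call: of 11 members 10 were tested, 1 rose, 0 fell, and their median log2 fold change was 0.03. Abcc2 (chromosome 19, 43782192 to 43840740, plus strand, GRCm38) stood at 804, 846, 721 and 937 CPM with ergothioneine and at 685, 644 and 649 CPM untreated. Every ergothioneine kidney lay above every untreated one, with kidney 4 highest and kidney 3 nearest to the untreated range. Means were 827 ± 89.9 CPM with ergothioneine (SD, n = 4) and 659 ± 22.2 CPM untreated (SD, n = 3), a log2 fold change of 0.33 ± 0.08 (SE; 95% interval 0.16 to 0.49; edgeR adjusted p = 0.0154). The call was lost without ergothioneine kidney 2, untreated kidney 2 or untreated kidney 3 (adjusted p = 0.0546, 0.055 and 0.0581), and without untreated kidneys 1 and 2 together (0.155), while the log2 fold change stayed between 0.26 and 0.38 in the edgeR fits without a single kidney.

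The rise of Abcc2 in counts was not seen in its level per transcript length. In protein-coding TPM the group means were 321 ± 55.3 with ergothioneine and 310 ± 39.0 untreated (SD, n = 4 and 3), a log2 fold change of 0.04 (limma-trend on log2(value + 1), adjusted p = 0.951). In the deposited TPM the sign was opposite, at -0.33, where the median of all genes lay at -0.28 and that of the tested members at -0.26. The length by which the authors' estimate divided the Abcc2 counts was recovered as the ratio of count to TPM, scaled over 2356 genes with a single annotated transcript so that 1 is the mean of the kidneys. This relative length was 1.07, 1.06, 1.14 and 1.06 with ergothioneine and 0.991, 0.860 and 0.820 untreated. Ergothioneine kidneys thus had the longer implied Abcc2 transcript in every case, by a log2 ratio of 0.29. A ratio at least that large in size was seen in 125 of 7685 well-covered genes with several transcripts (1.63%), and the groups did not overlap in 7.27% of those genes.

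**Figure D3:**
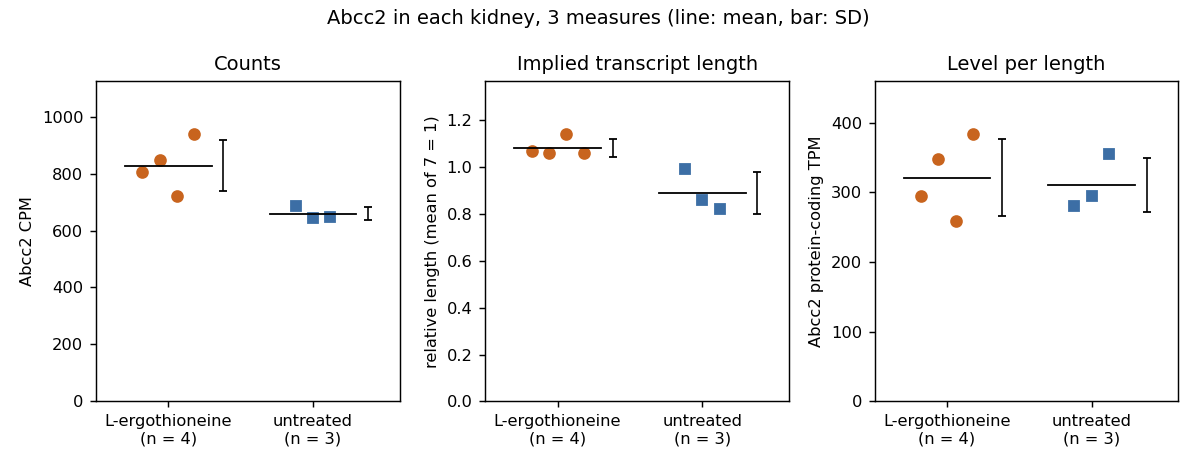
Abcc2 in each kidney as CPM, as relative implied transcript length and as protein-coding TPM, with the mean (line) and SD (bar) of the 4 ergothioneine and 3 untreated kidneys. With ergothioneine against untreated, the groups are apart in CPM (721 to 937 against 644 to 685) and in implied length (1.06 to 1.14 against 0.820 to 0.991) and overlap in protein-coding TPM (258 to 383 against 281 to 355).

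GENCODE lists 5 Abcc2 transcripts, and the 2 that are protein-coding differ widely in length. The full transcript has 8027 bases in 32 exons, and a second of 1926 bases lies wholly inside exon 32, the last. The other 3 are retained-intron fragments of 531 to 607 bases. The deposited tables hold gene totals, so the share of each transcript was not measured here. Among 26 members with more than 1 transcript and enough reads, the groups did not overlap in implied length for 4, against 7.27% of the 7685 genes. The 4 were Abcc2, Abcc5, Abcd3 and Abcg2. In Abcc5, an exporter of cyclic nucleotides, it ran the other way, at 1.04, 0.770, 0.793 and 1.05 with ergothioneine and 1.15, 1.09 and 1.11 untreated. Its log2 fold change was -0.06 in counts and 0.24 in protein-coding TPM, and neither passed. The differences in Abcd3 and Abcg2 were small, with log2 ratios of -0.017 and 0.031.

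Abcg2 itself stood at 504.6, 521, 564 and 498.5 CPM with ergothioneine and at 478, 495 and 440 CPM untreated. The groups did not overlap, by a gap of under 4 CPM, and the log2 fold change of 0.15 ± 0.06 did not pass (edgeR adjusted p = 0.197). Abcc1, which encodes MRP1, the glutathione conjugate and leukotriene exporter of basolateral membranes, had 36.1, 42.7, 35.8 and 38.1 CPM with ergothioneine and 34.4, 31.8 and 31.9 CPM untreated. These groups too were apart, and the log2 fold change of 0.22 ± 0.08 missed the threshold (adjusted p = 0.0921). Summed over the 11 efflux members, most of it Abcc2 and Abcg2, CPM was 1688, 1769, 1624 and 1735 with ergothioneine and 1493, 1456 and 1443 untreated. The Abcc2 part of this sum rose in counts but not in protein-coding TPM (log2 fold change 0.04). The sum itself was not tested. Abcc3, another basolateral exporter (log2 fold change -0.30 ± 0.16), Abcc10 (-0.13), Abcc6, which serves ATP release from liver (-0.12), and Abcc5 did not pass (adjusted p 0.295 to 0.730).

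Abcc4 encodes MRP4, which exports urate, cyclic nucleotides and many drugs at the brush border. Its values spread more with ergothioneine, at 197, 207, 159 and 111 CPM, than untreated, at 138, 131 and 146 CPM. Kidneys 1, 2 and 3 of the ergothioneine group lay above the untreated range and kidney 4 below it. Over all 7 kidneys the log2 fold change was 0.28 ± 0.23 (edgeR adjusted p = 0.591). Without ergothioneine kidney 4 it was 0.44 and past the threshold (adjusted p = 0.00967), in a fit that called 6.15% of all genes. That kidney was also the lowest of its group for Abcb1a and Abcb1b and the highest for Abcc2.

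Abcb1a and Abcb1b are neighbouring genes on chromosome 5, 49572 bases apart, that together encode the P-glycoprotein drug pumps for which humans have a single gene. Abcb1b had 15.4, 12.3, 15.1 and 7.58 CPM with ergothioneine and 18.5, 19.0 and 19.6 CPM untreated. All 4 ergothioneine kidneys lay below the untreated range, and kidney 4 was lowest. The log2 fold change of -0.60 ± 0.22 (0.661-fold, 95% interval 0.467 to 0.934) did not pass by edgeR (adjusted p = 0.160), whereas DESeq2 gave an adjusted p of 0.0232 and edgeR without ergothioneine kidney 4 gave -0.42 and 0.0283. Abcb1a had 16.5, 15.8, 14.5 and 9.92 CPM with ergothioneine against 12.4, 14.4 and 12.3 CPM untreated, which overlapped (0.12 ± 0.15, adjusted p = 0.721).

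Because the sequences of Abcb1a and Abcb1b are alike and the deposited counts are estimates that divide shared reads, their separate levels are uncertain. Summed, they had 31.9, 28.1, 29.6 and 17.5 CPM with ergothioneine and 30.9, 33.4 and 31.9 CPM untreated, with a log2 fold change of -0.26 ± 0.19 (edgeR adjusted p = 0.540; -0.10 without ergothioneine kidney 4). Of the summed counts Abcb1b took 48.3%, 43.7%, 51.1% and 43.3% with ergothioneine and 59.8%, 56.8% and 61.4% untreated. Its share was thus lower in all 4 ergothioneine kidneys (46.6% ± 3.78 with ergothioneine against 59.3% ± 2.29 untreated; SD, n = 4 and 3). An exact two-sided permutation test gave p = 0.0571, the smallest that this form of the test can give with 35 ways of splitting 7 kidneys. In TPM the shares were 54.6% ± 3.72 with ergothioneine and 65.9% ± 3.18 untreated, with the same p. The sum and the share were chosen after the values were seen. The permutation p-values therefore cannot decide whether the share differs between the groups.

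**Figure D4:**
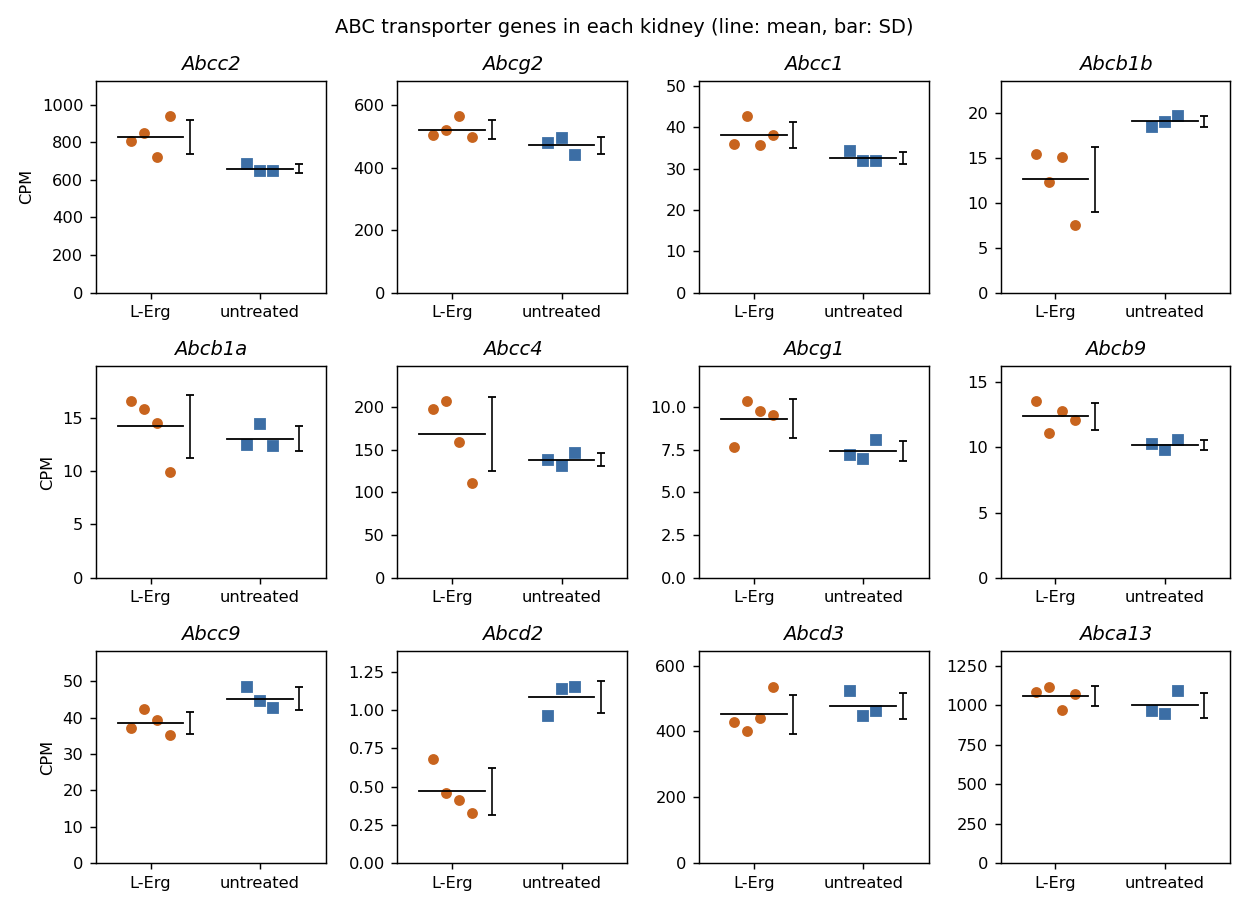
CPM of 12 ABC genes in each kidney (circles, 4 with ergothioneine, L-Erg; squares, 3 untreated) with the mean (line) and SD (bar) of each group, each panel on its own axis from 0. Abcc2, Abcg2, Abcc1 and Abcb9 lie wholly above the untreated kidneys and Abcb1b, Abcc9 and Abcd2 wholly below, while Abcc4 spans 111 to 207 with ergothioneine around 131 to 146 untreated.

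Among the role groups outside efflux, 0 members passed by edgeR or DESeq2. An unadjusted p under 0.05 by edgeR was seen in 4 members: Abcg1, Abcd2, Abcb9 and Abcc9. Among efflux members it was seen in 4 of 10 tested. Over all 33 tested members the share was 24.2%, near the 20.8% of all genes. Of 6 genes for sterol export 3 were tested, and all 3 log2 fold changes were positive in counts. On the deposited TPM scale, as log2(TPM + 1), Abca1 (-0.15) and Abca7 (-0.14) were negative, where the median of all genes was -0.28. Abca1 was also at -0.05 in counts without ergothioneine kidney 2. Abcg1, which passes cholesterol to HDL, had 7.67, 10.3, 9.76 and 9.54 CPM with ergothioneine and 7.20, 6.97 and 8.08 CPM untreated. Kidney 1 of the ergothioneine group lay inside the untreated range and the other 3 above it (0.33 ± 0.13, edgeR adjusted p = 0.152). Abca1, which loads cholesterol onto apolipoprotein A-I, had 46.8, 73.0, 42.7 and 46.4 CPM with ergothioneine and 56.1, 37.9 and 46.6 CPM untreated. A single ergothioneine kidney stood high, the remaining 6 overlapped, and the log2 fold change was 0.15 ± 0.25 (adjusted p = 0.806). Abca7, a phospholipid and sterol carrier, stood at 26.5 to 32.9 CPM with ergothioneine and 23.2 to 28.9 CPM untreated (0.20 ± 0.09, adjusted p = 0.242).

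The other lipid carriers differed little. Of 7 listed 3 were tested: Abca3, the surfactant lipid carrier of lung (774 to 854 CPM with ergothioneine, 714 to 855 CPM untreated; 0.03 ± 0.07), Abca2, an endolysosomal carrier of brain (0.08 ± 0.07), and the retinal carrier Abca4 (-0.11 ± 0.12). Abca3 starts 882 bases from Abca17, which is read in the opposite direction and had at most 5 counts in a library. Abca13 showed a log2 fold change of 0.09 ± 0.07, with overlapping groups. The 5 genes of the Abca5 cluster lie side by side on chromosome 11 on the same strand, in the order Abca8b, Abca8a, Abca9, Abca6 and Abca5, with gaps of 4771 to 29789 bases. Adjacent as they are, they differed in level, from 0.916 to 1.49 protein-coding TPM for Abca6 with ergothioneine (0.918 to 1.18 untreated) to 9.13 to 18.3 for Abca5 with ergothioneine (9.77 to 12.02 untreated) and 8.81 to 14.5 for Abca8a with ergothioneine (8.34 to 18.4 untreated). Their log2 fold changes ran from -0.24 to 0.12, 3 positive and 2 negative, and 0 had an unadjusted p under 0.05.

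Of the 4 mitochondrial members 0 passed by edgeR or DESeq2, and 0 had an unadjusted p under 0.05. Abcb10, linked to heme synthesis, stood at 35.4, 35.9, 33.4 and 40.4 CPM with ergothioneine and 33.8, 32.2 and 34.0 CPM untreated, and the groups overlapped (0.12 ± 0.08, edgeR adjusted p = 0.400). Abcb6, linked to porphyrin transport, was at -0.02 ± 0.07, and Abcb8, linked to mitochondrial iron, at -0.08 ± 0.07.

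Peroxisomal members carry very long chain and other fatty acids inward, and 0 of 3 passed by edgeR or DESeq2, with 1 at an unadjusted p under 0.05. Abcd3, by far the most abundant, had 428, 402, 441 and 536 CPM with ergothioneine and 522, 446 and 463 CPM untreated, with overlapping groups (-0.08 ± 0.09, edgeR adjusted p = 0.698). Abcd2, known from adipose tissue and brain, was counted 12, 9, 7 and 6 times in ergothioneine libraries and 17, 17 and 18 times in untreated ones. This was 0.681, 0.455, 0.409 and 0.327 CPM with ergothioneine against 0.964, 1.14 and 1.15 CPM untreated, and the groups did not overlap. At this depth the log2 fold change was -1.20 ± 0.36 (0.435-fold, 95% interval 0.256 to 0.742) and missed the threshold by edgeR (adjusted p = 0.0561), but not by limma-voom (0.0452) or by edgeR without ergothioneine kidney 1 (0.0497).

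Adipocyte markers, like Abcd2, lay lower in the ergothioneine group. Of 8 listed 6 were tested, and all 6 fell by edgeR, from Cfd (-1.35) to the brown fat gene Ucp1 (-4.65). The summed level of the 8 was 1.42, 5.01, 5.73 and 3.65 CPM with ergothioneine and 33.3, 33.8 and 45.8 CPM untreated. Within the ergothioneine group the order differed: kidney 1 had the lowest marker sum and the highest Abcd2. Among defining markers, Ucp1 and Cidea were at 0 in ergothioneine kidney 1, and Cidea was at 0 in ergothioneine kidney 3. The part of fat cells in the Abcd2 values was not tested.

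Of the lysosomal members and the channel-linked Abcc9, 0 passed by edgeR. Abcb9, a lysosomal peptide carrier, had 13.5, 11.1, 12.8 and 12.1 CPM with ergothioneine and 10.3, 9.78 and 10.5 CPM untreated, so the groups were apart, and the log2 fold change of 0.28 ± 0.11 did not pass (edgeR adjusted p = 0.143). Abcd4, which serves the exit of cobalamin from lysosomes, was at 0.05 ± 0.10. Abcc9 encodes SUR2, the sulfonylurea receptor subunit of a potassium channel of smooth muscle and pericytes. It had 37.1, 42.4, 39.4 and 35.2 CPM with ergothioneine and 48.6, 44.7 and 42.6 CPM untreated, apart by a narrow margin (-0.23 ± 0.08, adjusted p = 0.0732). Of 4 markers of pericytes and smooth muscle 1 rose, Acta2 (0.44), and 0 fell, and their summed level was 142 to 153 CPM with ergothioneine and 119 to 149 CPM untreated.

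**Figure D5:**
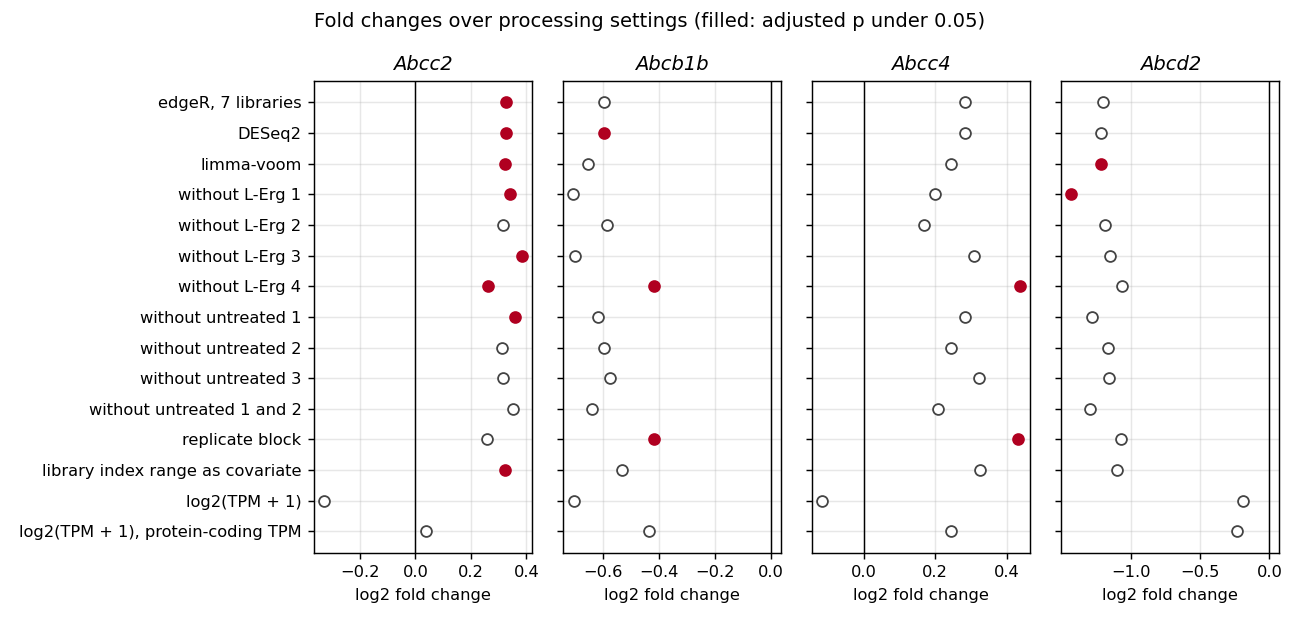
Log2 fold change of Abcc2, Abcb1b, Abcc4 and Abcd2 (ergothioneine over untreated) under each processing setting, filled where the adjusted p is under 0.05. Abcc2 is filled in most count settings and lies at -0.33 in deposited TPM and 0.04 in protein-coding TPM. Abcc4 is filled only without ergothioneine kidney 4 and with the replicate block, in which that kidney has no untreated partner.

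Genes that work with the ABC transporters were read from the same test. Of 16 tested receptors and factors known to regulate ABC genes, 3 rose and 1 fell, where 7.16% of all genes were called. At an unadjusted p under 0.05 there were 8 of the 16, against 20.8% of all genes. The list was chosen with earlier results of these data known. Ppard, a fatty acid receptor, rose to 45.2, 42.0, 34.6 and 43.7 CPM with ergothioneine, against 17.5, 15.3 and 16.5 CPM untreated (1.33 ± 0.10, edgeR adjusted p = 1.89e-07). In the deposited TPM with no filter Ppard was at 0.80 and did not pass (limma adjusted p = 0.119). Srebf2 and Srebf1, the regulators of sterol and fatty acid synthesis, rose by 0.45 ± 0.06 (0.000112) and 0.69 ± 0.13 (0.0139) in counts. Srebf1 lost its call without any single untreated kidney (0.0774 to 0.0897) and in protein-coding TPM (0.61, limma adjusted p = 0.170). It also lost it in the deposited TPM (0.25, limma adjusted p = 0.381). Srebf2 kept its call in protein-coding TPM and lost it in the deposited TPM (0.08, 0.774). Ppara, the receptor behind fatty acid oxidation, fell to 74.3, 77.0, 81.3 and 67.0 CPM with ergothioneine, against 120, 90.5 and 126 CPM untreated (-0.58 ± 0.11, adjusted p = 0.0128; 0.0504 without untreated kidney 1). In protein-coding TPM Ppara was at -0.33 and did not pass (limma adjusted p = 0.433), nor did it in the deposited TPM (0.0702 to 0.177).

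Of 11 uptake carriers and exchangers of the tubule, 0 rose and 1 fell: Slco3a1, an organic anion carrier, at 209, 208, 209.6 and 194 CPM with ergothioneine against 248, 236 and 276 CPM untreated (-0.31 ± 0.06, edgeR adjusted p = 0.00532; -0.30 and limma adjusted p = 0.211 in protein-coding TPM, and 0.0611 to 0.140 in the deposited TPM). At an unadjusted p under 0.05 there were 4 of the 11. None of the 6 scaffold proteins that anchor apical transporters passed by edgeR (3 at an unadjusted p under 0.05, 1 called by DESeq2). Nor did any of 18 tested partners and acceptors (2 and 1). Over all genes the edgeR shares were 7.16% called and 20.8% at an unadjusted p under 0.05. In the 7 ABC family genes outside the rule, such as Cftr, Tap1 and Abce1, 0 passed by edgeR or DESeq2 and 0 had an unadjusted p under 0.05. Among markers of other kidney cell types, all 3 of intercalated cells rose (summed 117 to 145 CPM with ergothioneine, 89.8 to 99.7 CPM untreated). Of podocytes 1 of 3 rose, as did 1 of 3 of the thick ascending limb (Slc12a1, negative on the deposited TPM scale, like the median of all genes). Of the straight proximal tubule 1 of 3 fell (Slc7a13). The other 2 markers of each of these 3 cell types did not pass. Their part in the ABC values was not tested.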

How the data were processed

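Total RNA of frozen kidney was depleted of ribosomal RNA and made into stranded libraries, per the labels' protocols. The submitters' processing notes name STAR 2.7.10a, RSEM 1.3.1, Salmon 1.10.1, Subread 2.0.1 and DESeq2 with the builds GRCm38 and mm10, without a role or setting, and the strand setting is not given in the sources used here. Expected counts were deposited by the authors, estimates of which 8.37% of the values above 0 were not exactly whole, beside the authors' TPM, which divides by transcript length. GENCODE M21 held 45143 of the 45706 identifiers.

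Rounded expected counts entered edgeR 4.0.16 under R 4.3.3 (filterByExpr by group, TMM, robust quasi-likelihood F test, ergothioneine against untreated, all 7 libraries, Benjamini-Hochberg threshold of 0.05). CPM uses TMM library sizes, standard errors are the log2 fold change over the square root of F, and intervals are 95%. The median standard error was 0.09 for members. Library pairs within a group differed by 7.98 to 27.6 times sampling noise, so none is a copy. Whether the mice came from separate litters is not stated, so p-values measure the spread between these kidneys. Implied length was compared over genes with at least 100 counts and 1 TPM in every library.

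Members, role groups, companion and marker lists were chosen with earlier results of these data known, as was leaving out untreated kidneys 1 and 2 together. Some genes stay in every count but are not reported by name here. Every member past the threshold is named, every tested member may be, and companion genes are named where past it; ABC genes outside the rule, marker examples and further genes at the end were picked with values in view. Alternatives were DESeq2 1.42.0, limma-voom and limma-trend on TPM (limma 3.58.1; pseudocounts of 1 and 0.1; at least 0.1 TPM in 3 libraries), other scalings, filters and thresholds, left-out libraries, a replicate block and the range of library index numbers.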

Additional observations from a re-analysis of the deposited data

Results flagged for a closer look

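In 3 of the 36 genes checked, 1 ergothioneine kidney lay far from the other 3, by more than Dixon's 95% limit for a group of 4, which chance passes in about 1 of 20 groups. Abca1 was at 72.96 CPM in ergothioneine kidney 2, against 42.7 to 46.8 CPM in the other ergothioneine kidneys and 37.9 to 56.1 CPM untreated. Abca9 was highest in ergothioneine kidney 4, at 24.43 CPM against 20.4 to 20.7 CPM in its group and 20.01 to 27.7 CPM untreated. Slco3a1 was lowest in ergothioneine kidney 4, at 193.7 CPM against 208 to 209.6 CPM in its group and 236 to 276 CPM untreated.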

How the results depend on the processing

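The number of ABC members called, 1 over all 7 kidneys, was 2 by DESeq2, limma-voom and the replicate block, 0 to 3 without single kidneys, 0 without untreated kidneys 1 and 2 together, 0 on any of the 4 TPM scales, and 0 and 4 at adjusted p of 0.01 and 0.1. Calls over all genes, 1102 in the reported fit, were 692 to 1103 without single kidneys, 556 without untreated kidneys 1 and 2, 448 (18 higher, 430 lower), 456 (23 higher, 433 lower) and 64 (2 higher, 62 lower) on log2(TPM + 1), log2(TPM + 0.1) and log2(TPM + 1) with no filter, 235 on protein-coding TPM, and 481 and 1741 at 0.01 and 0.1. Those on protein-coding TPM were 111 higher and 124 lower. The cause of these differences was not tested.

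Same-numbered kidneys deviated together by a correlation of -0.068 to 0.027 over 3 pairs, and differently numbered ones by -0.073 to 0.062. So few pairs, taken over all genes at once, cannot show whether the numbers pair mice. With the replicate block 809 genes were called, Abcc2 stood at 0.26 (edgeR adjusted p = 0.0817) and Abcb1b (-0.42, 0.0441) and Abcc4 (0.43, 0.0269) passed. The block leaves ergothioneine kidney 4 without a partner.

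Of 727 gene-level values, 623 kept direction and side of the threshold, 27 lost a call, 7 gained one and 70 changed sign. On log2(TPM + 1), with or without filter, the sign turned for Abca1 (-0.15), Abca13 (-0.28), Abca2 (-0.22), Abca3 (-0.33), Abca5 (-0.19), Abca7 (-0.14), Abca8a (-0.26), Abca8b (-0.14), Abcb10 (-0.22), Abcb1a (-0.13), Abcb9 (-0.10), Abcc1 (-0.12), Abcc2 (-0.33), Abcc4 (-0.12), Abcd4 (-0.28) and Abcg2 (-0.25), 16 named members with positive values in counts, where the median of all genes lay at -0.28. On log2(TPM + 0.1) these were -0.18, -0.29, -0.23, -0.33, -0.22, -0.17, -0.29, -0.27, -0.24, -0.17, -0.12, -0.14, -0.33, -0.12, -0.31 and -0.25 in the same order. On protein-coding TPM Abca6 (0.047) and Abcc5 (0.24) turned. Without untreated kidneys 1 and 2 Abca13 (-0.036), Abca2 (-0.018), Abca3 (-0.053), Abca5 (-0.034), Abca8a (-0.025) and Abca8b (-0.13) turned, with the index range as a covariate Abca5 (-0.022) and Abca8b (-0.0093), and with the block Abca5 (-0.049) and Abcb6 (0.023). Without single kidneys the sign turned for Abca1 (-0.053 to 0.31), Abca2 (-2.2e-05 to 0.13), Abca3 (-0.045 to 0.080), Abca5 (-0.049 to 0.036), Abcb6 (-0.070 to 0.043), Abcc5 (-0.12 to 0.011), Abcc6 (-0.19 to 0.0069) and Abcd4 (-0.031 to 0.12). Depth limits Abcd2, at 6 to 12 counts with ergothioneine and 17 to 18 untreated, and left 13 members untested.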

Other observations

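Among the untested members, Abcb4, the phosphatidylcholine carrier of bile, had 5, 8, 20 and 4 counts with ergothioneine and 4, 4 and 3 untreated, so that ergothioneine kidney 3 stood above the rest. Abcb11, the bile salt pump, had 2, 1, 6 and 1 counts with ergothioneine and 2, 0 and 1 untreated, again highest in that kidney. Apoa1, the apolipoprotein that accepts cholesterol from ABCA1, was at 0.284, 0.354, 1.87 and 0.218 CPM with ergothioneine and 0.453, 0.268 and 0.0641 CPM untreated. These counts were too few for the test, the genes were chosen after their values were seen, and no other test was run.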
